A study of Mus musculus with 6 samples.

Results

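The DNA replication genes described here are 43 genes whose proteins license, unwind and copy DNA, supply its building blocks, and restore chromatin behind the fork. Their transcripts were read on 6 Affymetrix arrays of mouse uterine RNA, 3 from control and 3 from mutant mice. Members were found by their exact gene symbol in the platform annotation, among probe sets that carried 1 symbol, and each gene was read by its brightest probe set over the 6 arrays. By this rule 42 of the 43 members were measured, out of 18193 genes in all, and Chaf1a matched no such probe set. The mutant mice had the genotype Pgr cre/+ Ctnnb1f(ex3)/+. In these mice the Cre recombinase is made from the Pgr locus, so only cells that express the progesterone receptor, or descend from such cells, lose exon 3 of Ctnnb1, and the β-catenin they make is not degraded in the usual way. The labels call the control genotype wild type, whereas the paper writes it as Pgr cre/+ and Ctnnb1 f(ex3)/+, and which of these alleles each control array carried was not settled. Both groups were females of 4 weeks of age by the labels. According to the methods, RNA from 3 mice was pooled for each genotype, so the arrays of a group may not stand for separate animals, and every p-value below measures the spread between arrays, which may be technical.

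Each round of DNA replication starts at origins, where the origin recognition complex, CDC6 and CDT1 load the ring of MCM2 to MCM7. At the start of S phase CDC45 and the GINS complex join the ring and turn it into the active helicase, and polymerases α, δ and ε then copy the strands with the help of the PCNA clamp. Many of these genes are transcribed under the control of E2F factors as cells pass from G1 into S phase, and in the uterus their transcripts are best known from the epithelium and stroma, which divide in response to steroid hormones.

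The promoters of the members were compared first, because the RefSeq sequence before a gene's start was not used to choose them. A window of 250 bases before and 50 bases after the start (RefSeq, GRCm38.p6) was found for 36 of the 43 members. The letters searched on both strands were TTTCCCGC, TTTGGCGC, TTTCGCGC and TTTGCCGC for E2F, TTTGAA for the cell cycle homology region (CHR), and CCAAT for the box bound by NF-Y. An E2F match stood in the windows of 16 of 36 members (44.4%), against 3.81% of 14452 genes on the arrays that had a window and 2.61% of all 27025 genes with one. Some genes have several windows, and a gene was counted if any of them held a match. Of the MCM genes with a window 4 of 5 had a match, of the licensing genes 4 of 6, and of the nucleotide supply genes 0 of 4. A CHR match stood in 6 of 36 members (16.7%, against 15.7% of the genes on the arrays) and a CCAAT match in 23 of 36 (63.9%, against 42%). Among 85 matches in member windows, 1 overlapped a match of another kind. A match of letters is a description and not a bound site. The stretches below, read along each gene's strand, show the E2F match nearest to the start, in capitals, for the members with a match that were called in either fit below, for the rest of the MCM ring with a match, for Lig1, and for Orc3, the only member with a negative log2 fold change on 6 arrays.
Cdc6, chr11:98908003-98908030 (+), first matched base 138 before the start: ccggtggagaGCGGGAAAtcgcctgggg
Mcm3, chr1:20820276-20820303 (-), 19 after the start: aacttccgtgGCGGGAAAacttgggaag
Gins3, chr8:95633508-95633535 (+), 41 before the start: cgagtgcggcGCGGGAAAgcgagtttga
Uhrf1, chr17:56304118-56304145 (+), 185 before the start: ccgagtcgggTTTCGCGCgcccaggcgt
Mcm5, chr8:75109350-75109377 (+), 149 before the start: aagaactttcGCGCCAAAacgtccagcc
Mcm6, chr1:128359735-128359762 (-), 47 before the start: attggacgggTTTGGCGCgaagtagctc
Mcm7, chr5:138171850-138171877 (-), 16 after the start: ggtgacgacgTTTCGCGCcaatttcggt
Lig1, chr7:13278842-13278869 (+), 26 after the start: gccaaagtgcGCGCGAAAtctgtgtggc
Orc3, chr4:34614966-34614993 (-), 41 before the start: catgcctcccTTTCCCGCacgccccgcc

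Not every member that moved had such letters near its start. The 250 bases before the start are shown for Cdc6, which has an E2F match and rose in the mutant, for Rpa1, which rose without one, and for Rrm2, which has none and had one of the widest gaps between control arrays. Capitals mark E2F and CCAAT matches.
Cdc6, chr11:98907901-98908150 (+): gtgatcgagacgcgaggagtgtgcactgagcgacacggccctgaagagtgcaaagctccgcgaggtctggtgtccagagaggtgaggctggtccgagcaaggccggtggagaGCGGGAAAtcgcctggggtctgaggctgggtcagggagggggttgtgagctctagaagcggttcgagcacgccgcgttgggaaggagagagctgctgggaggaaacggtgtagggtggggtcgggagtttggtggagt
Rpa1, chr11:75348384-75348633 (-): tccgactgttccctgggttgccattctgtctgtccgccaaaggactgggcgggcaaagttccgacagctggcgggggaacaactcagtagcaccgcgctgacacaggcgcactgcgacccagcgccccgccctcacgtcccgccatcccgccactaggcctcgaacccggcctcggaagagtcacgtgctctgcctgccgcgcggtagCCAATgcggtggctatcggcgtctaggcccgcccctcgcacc
Rrm2, chr12:24708004-24708253 (+): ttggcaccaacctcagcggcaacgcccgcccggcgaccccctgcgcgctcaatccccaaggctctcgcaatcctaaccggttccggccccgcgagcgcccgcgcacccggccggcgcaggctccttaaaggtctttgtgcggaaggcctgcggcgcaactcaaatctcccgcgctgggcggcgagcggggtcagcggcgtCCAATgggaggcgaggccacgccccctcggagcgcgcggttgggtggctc

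The deposited values are intensities on a linear scale, and log2 was taken of them, so that every level below is a log2 intensity and every difference is on the log2 scale. Intensities ran from 1.99 to 10887, with medians of 7.23 to 7.42 on the 6 arrays, and 62.3 to 62.6% of probe sets lay under an intensity of 16. Markers of uterine epithelium had means of 8.02 to 8.53 on the 6 arrays (11 genes), those of stroma 9.87 to 9.998 (12 genes) and those of myometrium 9.16 to 9.55 (12 genes), and 9 reference genes had means of 9.65 to 9.78. As whole uteri were read, fewer cells of a type and less RNA per cell cannot be told apart. Only 3 arrays a group limit the precision of each value.

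To determine whether replication transcripts differed between mutant and control uteri, all 18193 genes were fitted with limma on the 6 arrays and again without control replicate 2. In the fit of 6 arrays, 7 of 42 members rose in the mutant (Cdc6, Mcm2, Mcm3, Mcm4, Gins3, Rpa1 and Chaf1b), 0 fell, and 35 did not pass an adjusted p under 0.05. Over all genes 5.61% rose and 6.36% fell in that fit. Without control replicate 2, 7 members rose (Cdc6, Mcm3, Mcm4, Pcna, Rpa1, Chaf1b and Uhrf1) and 0 fell, beside 3.97% and 3.75% of all genes. Thus 5 members rose in both fits and 9 in either. The median log2 fold change of the members was 0.48 on 6 arrays, against -0.01 over all genes, and 0.22 without control replicate 2, against -0.02. It was positive for 41 of 42 members, against 47.2% of all genes, and for 36 of 42 without control replicate 2, against 45.1%. All mutant arrays lay above all control arrays for 25 of 42 members, where 14.9% of all genes did so, and above control replicates 1 and 3 for 25, against 18.7%.

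**Figure D1:**
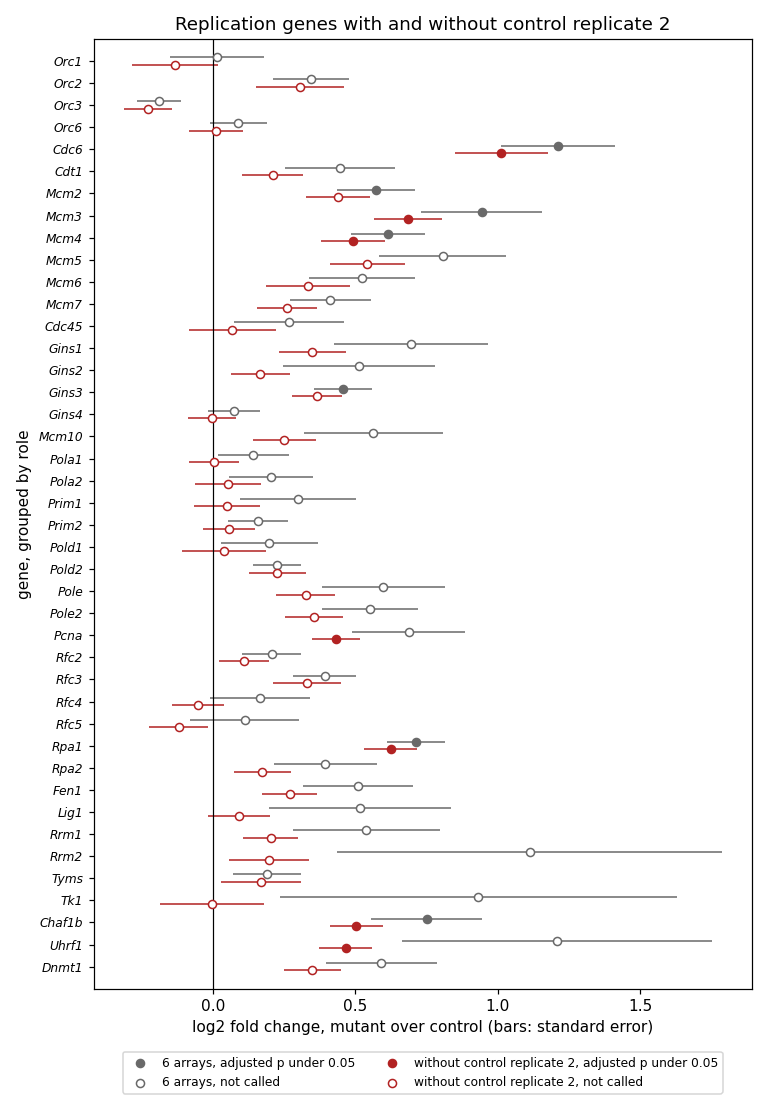
Log2 fold changes of mutant over control uterus (x axis) for the 42 members (y axis, grouped by role), with limma's standard errors as bars, in the fit of 6 arrays (grey) and without control replicate 2 (red); filled points passed an adjusted p under 0.05. The median falls from 0.48 to 0.22 without that array, the bars of Tk1, Rrm2 and Uhrf1 shorten the most, and Rpa1 and Cdc6 are filled in both fits.

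Control replicate 2 stood apart from the other arrays for nearly all members. The mean over the 42 members was 5.91, 5.22 and 5.93 in control replicates 1, 2 and 3, and 6.18, 6.17 and 6.11 in mutant replicates 1, 2 and 3. Control replicate 2 held the lowest of the 6 values for 39 members, whereas this was so for 20.1% of all genes. The exceptions were Orc3, lowest in mutant replicate 3, Tyms, lowest in control replicate 3, and Pold2, lowest in control replicate 1. Relative to the mean of control replicates 1 and 3, control replicate 2 was lower for 41 of 42 members, with a median gap of -0.60 (-0.01 over all genes), and more than 1 lower for 7 members, against 0.852% of all genes. Control replicates 1 and 3 themselves differed by a median of 0.07 over the members. The median SD of the members was 0.35 in the control group and 0.12 in the mutant group, while over all genes it was 0.11 and 0.12. No label gives a reason to leave this array out, and results are given with and without it.

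**Figure D2:**
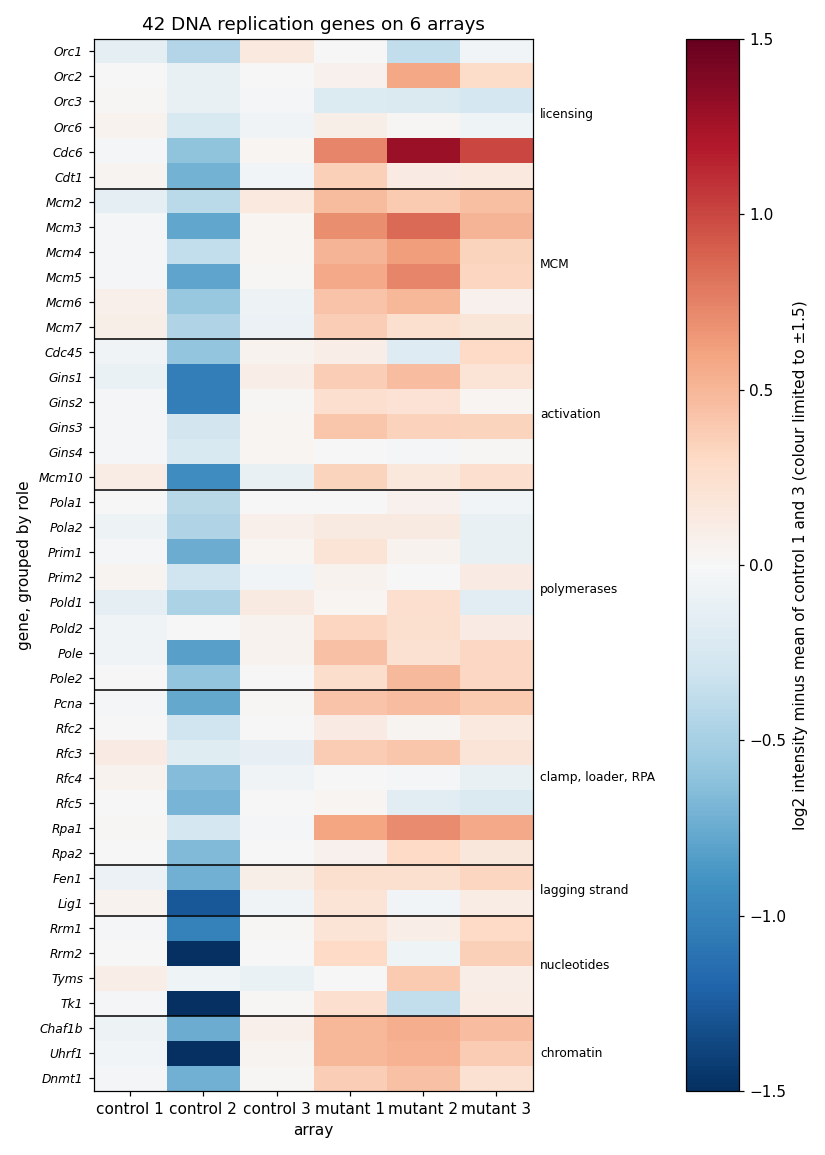
Log2 intensity of each of the 42 members (rows, grouped by role) on each of the 6 arrays (columns), as the difference from the mean of control replicates 1 and 3, with the colour limited to 1.5 either way. Control replicate 2 is blue for all members but Pold2, and the mutant arrays are red for most, deepest for Cdc6.

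Licensing genes differed among themselves. Cdc6 encodes the ATPase that, with the origin recognition complex, loads the MCM ring, and its log2 intensities were 2.96, 2.38 and 3.00 in control replicates 1 to 3 and 3.72, 4.28 and 3.98 in mutant replicates 1 to 3. The groups did not overlap, and Cdc6 rose 2.32-fold (log2 fold change 1.21, standard error 0.20, adjusted p = 0.00971 from limma). Without control replicate 2 it rose 2.02-fold (adjusted p = 0.018 from limma), and it passed on leaving out any single array (adjusted p of 0.0101 to 0.0382). Cdc6 was a dim probe set, with a mean under an intensity of 16, and with values floored at 16 its log2 fold change was 0.09 and did not pass. Cdt1, the partner of CDC6 in loading MCM, was at 7.497, 6.75 and 7.42 in the control and 7.82, 7.58 and 7.605 in the mutant, without overlap, and did not pass in either fit (adjusted p = 0.194, and 0.312 without control replicate 2, from limma). Genes of the origin recognition complex showed small differences. Orc2 was at 5.09, 4.97 and 5.08 in the control and at 5.15, 5.67 and 5.36 in the mutant, with the groups apart but a difference of 0.34 that did not pass (adjusted p = 0.151 from limma). Orc3 ran the other way, from 6.45, 6.32 and 6.41 in the control to 6.23, 6.21 and 6.17 in the mutant. It was the only member with all mutant arrays below all control arrays, beside 17.4% of all genes (23.1% against control replicates 1 and 3 alone), and its difference of -0.19 did not pass (adjusted p = 0.172 from limma). Orc1 and Orc6 had log2 fold changes of 0.01 and 0.09 and overlapping groups. Orc1 was dim, with means under an intensity of 16 for both its probe sets, so its level value says little. The 6 licensing genes had a median log2 fold change of 0.22, and of 0.11 without control replicate 2.

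The MCM genes encode the 6 subunits of the helicase ring, and all 6 had positive log2 fold changes in both fits. On 6 arrays 3 were called, and 2 without control replicate 2, beside 5.61% and 3.97% of all genes higher. Mcm2 was at 6.62, 6.37 and 6.91 in the control and at 7.24, 7.16 and 7.22 in the mutant, and rose by 0.57 (standard error 0.14, adjusted p = 0.034 from limma), but without control replicate 2 the change was 0.44 and did not pass (adjusted p = 0.0655). Mcm3 was at 6.001, 5.25 and 6.05 in the control and at 6.72, 6.87 and 6.54 in the mutant. It rose by 0.94 (standard error 0.21, adjusted p = 0.0289), and by 0.69 (adjusted p = 0.0219) without control replicate 2. Mcm4 had log2 intensities of 7.32, 6.98 and 7.38 in the control and 7.86, 7.97 and 7.69 in the mutant, and rose in both fits (0.61 with adjusted p = 0.0229, and 0.49 with adjusted p = 0.0477). Every mutant array lay above every control array for 5 of the 6 MCM genes, beside 14.9% of all genes. The 3 called genes were among them. Their calls depended on single arrays: Mcm2 passed only without control replicate 3 (adjusted p = 0.0174), Mcm3 was lost without control replicate 1 or mutant replicate 1 or 2 (0.0587, 0.0649 and 0.109), and Mcm4 was lost without the same arrays (0.0653, 0.0539 and 0.0851).

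The remaining subunits of the ring passed in neither fit. Mcm5 was at 7.06, 6.29 and 7.10 in the control and 7.65, 7.81 and 7.40 in the mutant, with no overlap (0.81, adjusted p = 0.0567, and 0.54, adjusted p = 0.0574, without control replicate 2, from limma). Mcm6 was at 7.23, 6.58 and 7.08 in the control and at 7.58, 7.65 and 7.22 in the mutant, so that mutant replicate 3 lay just below control replicate 1 (0.52, adjusted p = 0.117 from limma). Mcm7 was at 8.66, 8.12 and 8.49 in the control and 8.94, 8.81 and 8.75 in the mutant, apart but not past the threshold (0.41, adjusted p = 0.108 from limma). Second probe sets were read with limma p-values adjusted over 34945 probe sets. On 6 arrays the second probe set of Mcm2 rose by 0.84 (adjusted p = 0.027), that of Mcm3 by 0.75 (adjusted p = 0.019) and that of Mcm5 by 0.96 (adjusted p = 0.024). Those of Mcm6 (0.32, adjusted p = 0.283) and Mcm7 (0.32, adjusted p = 0.255) did not pass. Without control replicate 2, those of Mcm2 (0.65, adjusted p = 0.0495), Mcm3 (0.59, adjusted p = 0.0277) and Mcm5 (0.77, adjusted p = 0.0478) still passed. Those of Mcm6 and Mcm7 again did not. The second of Mcm4 was the exception to the low control array, at 6.41, 6.65 and 6.35 in control replicates 1 to 3 and 6.94, 7.21 and 6.78 in the mutant (0.50, adjusted p = 0.055). The probe sets used for Mcm2, Mcm3, Mcm5 and Mcm7 are of classes that Affymetrix marks as able to match more than 1 transcript, as are those of Gins2, Pold1, Fen1, Rrm2 and Dnmt1. Over the 6 MCM genes the median log2 fold change was 0.59, and 0.47 without control replicate 2.

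**Figure D3:**
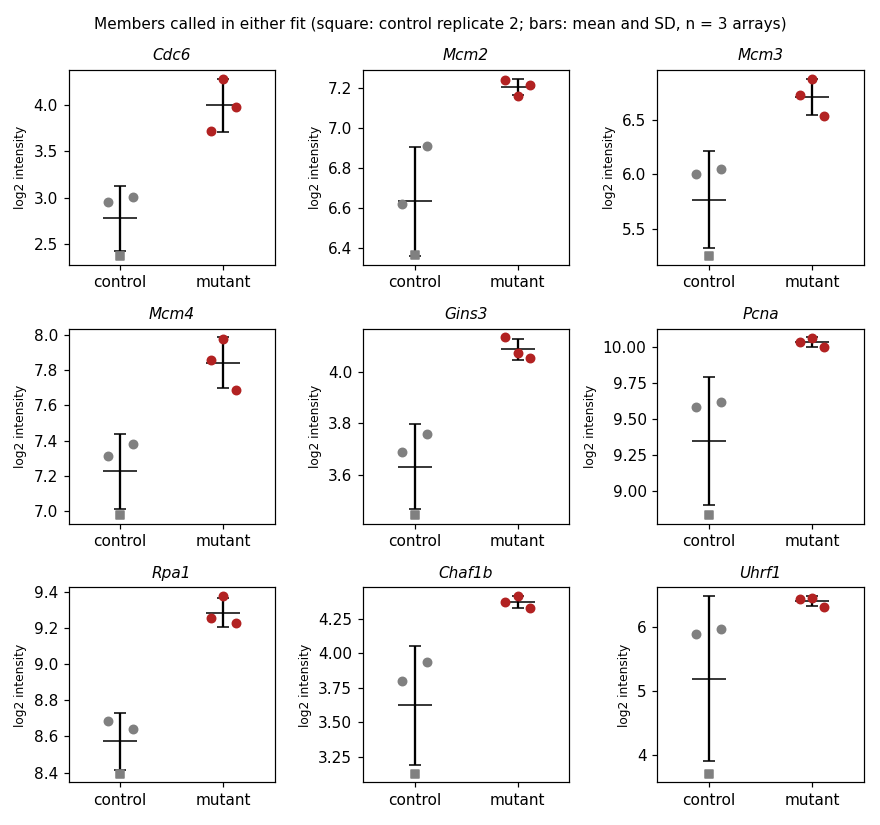
Log2 intensity (y axis, a separate scale in each panel) of the 9 members that passed in either fit, in control and mutant uterus, with a point per array, a square for control replicate 2, and the mean and SD of the 3 arrays of a group. Control replicate 2 is the lowest point in all panels, and for Uhrf1 it lies at 3.71 while the other control arrays are at 5.90 and 5.98.

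Of the 6 genes that activate the helicase, Cdc45, Gins3 and Mcm10 were dim, with means under an intensity of 16. Gins3, a subunit of the GINS complex, was at 3.69, 3.44 and 3.76 in the control and 4.14, 4.08 and 4.06 in the mutant. It rose by 0.46 (standard error 0.10, adjusted p = 0.0264 from limma). Without control replicate 2 the difference of 0.36 did not pass (adjusted p = 0.056), and it also missed the threshold on leaving out control replicate 1 or any mutant array (adjusted p of 0.0624 to 0.0801). A second, dimmer probe set of Gins3 differed by 0.20 and did not pass (limma's adjusted p = 0.288 over all probe sets). Its fellow subunit Gins1 had a wide gap in the control, at 4.08, 3.14 and 4.28, beside 4.55, 4.64 and 4.39 in the mutant, and did not pass (adjusted p = 0.15, and 0.137 without control replicate 2, from limma). Gins2 had nearly the same gap of -1.04. Gins4 was nearly level, at 6.43, 6.23 and 6.49 in the control and 6.46, 6.43 and 6.48 in the mutant. Cdc45 and Mcm10, which join and stabilise the active helicase, differed by 0.27 and 0.56 and did not pass (limma's adjusted p = 0.445 and 0.194). The median of the 6 genes went from 0.48 to 0.21 without control replicate 2.

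Among the 8 polymerase and primase genes, 0 passed in either fit, and their median log2 fold change went from 0.21 to 0.06 without control replicate 2. With 5.61% of all genes higher on 6 arrays and 3.97% without that array, a list of 8 may hold no call. Prim1, the catalytic subunit of primase, was at 6.82, 6.10 and 6.87 in the control and at 7.05, 6.90 and 6.74 in the mutant, so that only control replicate 2 lay apart. Pold2, the accessory subunit of polymerase δ, did not share the low value, at 6.43, 6.49 and 6.53 in the control and at 6.80, 6.72 and 6.60 in the mutant. Its groups did not overlap, and the difference was 0.22 with that array and 0.23 without it (limma's adjusted p = 0.139 and 0.24). The leading strand polymerase genes Pole and Pole2 had the largest differences in this role, 0.60 and 0.55, and 0.33 and 0.35 without control replicate 2 (adjusted p of 0.0779 to 0.124 from limma over both genes and fits). Pola1, Pola2, Prim2 and Pold1 had log2 fold changes of 0.00 to 0.06 once that array was left out.

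Of the clamp, clamp loader and single-strand binding genes, only Rpa1 passed in both fits. RPA1 is the large subunit of the complex that coats unwound single strands, and its gene was at 8.68, 8.39 and 8.64 in the control and 9.25, 9.37 and 9.23 in the mutant. The lowest mutant array lay well above the highest control array, and Rpa1 rose 1.64-fold (log2 fold change 0.71, standard error 0.10, adjusted p = 0.00572 from limma) and 1.54-fold without control replicate 2 (adjusted p = 0.0136). It passed on leaving out any single array (adjusted p of 0.0129 to 0.0265), and its second probe set rose by 0.70 (adjusted p = 0.012 over all probe sets). Its partner Rpa2 had differences of 0.39 and, without control replicate 2, 0.17, and did not pass. Pcna encodes the sliding clamp, and was at 9.58, 8.83 and 9.61 in the control and at 10.03, 10.06 and 9.997 in the mutant. With the low array in the fit its SD was 0.44 in the control against 0.03 in the mutant, and the difference of 0.69 did not pass (adjusted p = 0.0673 from limma), while without that array Pcna rose by 0.43 (standard error 0.09, adjusted p = 0.0321). The clamp loader genes differed little. Rfc3 was at 4.78, 4.47 and 4.53 in the control and at 5.03, 5.07 and 4.85 in the mutant, with a narrow separation (0.39, adjusted p = 0.0619 from limma). Rfc2, Rfc4 and Rfc5 had log2 fold changes of 0.11 to 0.21, and those of Rfc4 and Rfc5 were -0.05 and -0.12 without control replicate 2.

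Of the genes that finish the lagging strand, 0 of 2 were called in either fit. Over all genes 5.61% rose on 6 arrays and 3.97% without control replicate 2, so 2 genes may well hold no call. Fen1, the nuclease that trims flaps between Okazaki fragments, was at 7.61, 6.98 and 7.78 in the control and 7.94, 7.93 and 8.02 in the mutant, apart but not past the threshold (0.51, adjusted p = 0.139 from limma). A second, dimmer probe set of Fen1 differed by 0.83 and did not pass (limma's adjusted p = 0.110 over all probe sets). Without control replicate 2 that probe set rose by 0.46 and passed (adjusted p = 0.0427), so the lack of a call depended on the probe set. Lig1, the ligase that seals the fragments, was at 7.18, 5.86 and 7.07 in the control and at 7.33, 7.09 and 7.24 in the mutant. Control replicate 2 lay 2.41-fold below the other control arrays, and without it the difference of 0.52 became 0.09 (adjusted p = 0.677 from limma).

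Of the 4 nucleotide supply genes, Tk1 and Rrm2 had the widest gaps between control arrays of all members, and Tyms one of the narrowest. None was called in either fit, beside 5.61% of all genes higher on 6 arrays and 3.97% without control replicate 2. Tk1, the thymidine kinase of the salvage pathway, was at 6.04, 3.26 and 6.08 in the control and at 6.32, 5.69 and 6.17 in the mutant. Control replicate 2 was thus 6.98-fold below the other control arrays, which the mutant arrays overlapped, and the difference of 0.93 (standard error 0.70, limma's adjusted p = 0.462) became -0.00 (standard error 0.18) without it. Rrm2, the small subunit of ribonucleotide reductase that is made in S phase, was at 6.93, 4.18 and 6.91 in the control and at 7.22, 6.85 and 7.28 in the mutant. Here the array was 6.69-fold low, and the log2 fold change went from 1.11 (standard error 0.67) to 0.20 (standard error 0.14), with no call in either fit (adjusted p = 0.355 and 0.478 from limma). Rrm1, the large subunit, had a smaller gap, at 7.20, 6.21 and 7.24 in the control and 7.43, 7.32 and 7.52 in the mutant (0.54, and 0.20 without control replicate 2). Tyms, the thymidylate synthase gene, was at 1.85, 1.68 and 1.65 in the control and at 1.76, 2.15 and 1.85 in the mutant. All 4 of its probe sets with 1 symbol were near the lowest intensities of the arrays, so that Tyms was hardly measured here.

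Genes that copy chromatin and DNA methylation behind the fork had all mutant arrays above all control arrays for all 3 measured members, beside 14.9% of all genes. Chaf1b, a subunit of the chromatin assembly factor that places histones on new DNA, was at 3.80, 3.13 and 3.94 in the control and at 4.37, 4.41 and 4.33 in the mutant. It rose by 0.75 (standard error 0.20, adjusted p = 0.0478 from limma) and by 0.50 without control replicate 2 (adjusted p = 0.0266), but missed the threshold on leaving out control replicate 1 or any mutant array (adjusted p of 0.0921 to 0.147). The probe set used had a mean just under an intensity of 16, and a second one was dimmer and level between the groups (0.01). Uhrf1, which reads hemimethylated DNA and recruits DNMT1, was at 5.90, 3.71 and 5.98 in the control and at 6.44, 6.46 and 6.32 in the mutant. On 6 arrays the difference of 1.21 had a standard error of 0.54 and did not pass (limma's adjusted p = 0.208), whereas without control replicate 2 it rose by 0.47 (standard error 0.09, adjusted p = 0.0334). Dnmt1, the maintenance methyltransferase, was at 7.05, 6.35 and 7.09 in the control and at 7.45, 7.52 and 7.303 in the mutant, and passed in neither fit (0.59, adjusted p = 0.0981, and 0.35, adjusted p = 0.0891).

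**Figure D4:**
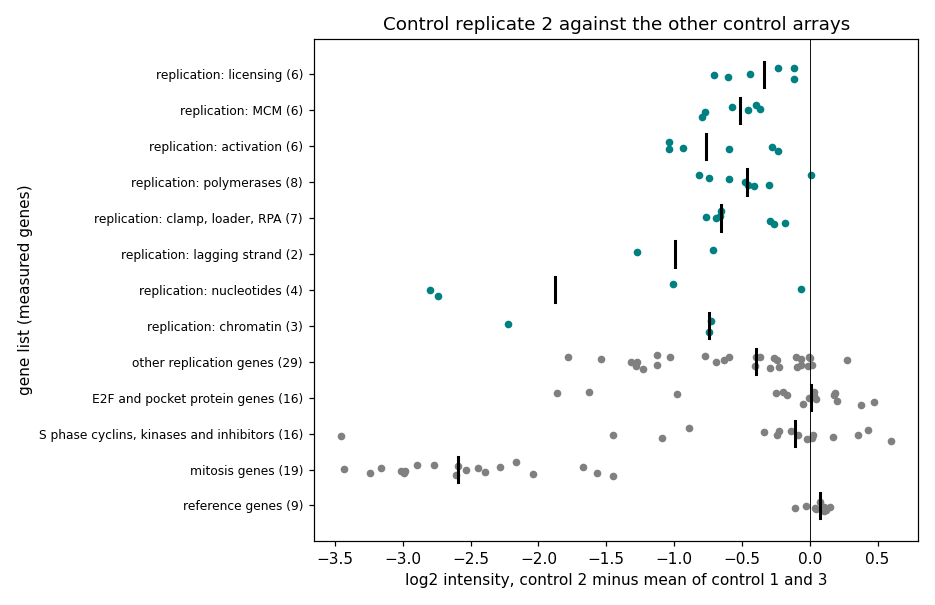
Log2 intensity in control replicate 2 minus the mean of control replicates 1 and 3 (x axis) for each measured gene, by replication role (teal) and for other lists (grey), with the number of genes in brackets and the median as a black bar. Replication genes lie between -2.80 and 0.01, mitosis genes between -3.44 and -1.45, and reference genes close to 0.

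The values of the members were also set beside their promoter letters, as a description. Members with an E2F match had a median gap of -0.58 in control replicate 2 (16 genes), and measured members with a window but no match had -0.66 (19 genes). Without control replicate 2 the median log2 fold changes were 0.33 and 0.20, against -0.02 over all genes. In each set 3 members were called higher, beside 3.97% of all genes higher in that fit.

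Other cell cycle genes were followed to place the members. Counts for these lists, and for mitosis genes below, stand beside 5.61% of all genes higher and 6.36% lower on 6 arrays. Without control replicate 2 these shares were 3.97% and 3.75%. Of 29 other replication genes that were measured, 3 rose and 0 fell in each fit, with a median of 0.40 and of 0.16 without control replicate 2. Pole4, a small subunit of polymerase ε, was at 6.18, 6.24 and 6.33 in the control and at 7.16, 7.70 and 7.37 in the mutant, with no low control array, and rose by 1.16 (adjusted p = 0.0028 from limma, and 0.0113 without control replicate 2). Hells, a chromatin remodeller, rose by 1.56 and by 1.14 without that array (adjusted p = 0.0235 and 0.0075). Tipin, of the fork protection complex, passed on 6 arrays (0.43, adjusted p = 0.025) and not without control replicate 2, where its difference was 0.44 (adjusted p = 0.0631). Dna2, a flap nuclease, differed by 0.87 on 6 arrays and did not pass (adjusted p = 0.075), and passed without control replicate 2 (0.53, adjusted p = 0.0224). Of 16 E2F and pocket protein genes, 0 passed on 6 arrays, and 1 passed without control replicate 2. This was E2f8, a repressor of the family, which differed by 1.61 on 6 arrays (adjusted p = 0.0723 from limma) and by 0.99 without that array (adjusted p = 0.0283). Of 16 G1 and S phase cyclins, kinases and inhibitors, 3 rose and 1 fell. The inhibitor gene Cdkn1a rose by 2.94, Ccnd1, the cyclin D1 gene, by 0.78, and the phosphatase gene Cdc25a by 0.51, while the inhibitor gene Cdkn1b fell by 0.70 (adjusted p of 0.0001 to 0.0384 from limma). Without control replicate 2, Cdkn1b did not pass (-0.58, adjusted p = 0.103 from limma) and Ccnd2, the cyclin D2 gene, rose by 0.65 (adjusted p = 0.0199).

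Mitosis genes had the widest gap between control arrays among these lists. Of the 19 measured, 0 passed in either fit, and all 19 were more than 1 lower in control replicate 2, with a median gap of -2.59. The mean over the list was 6.14, 3.67 and 6.27 in control replicates 1 to 3 and 6.10, 5.61 and 6.33 in mutant replicates 1 to 3. Mki67, which encodes the proliferation marker Ki-67, was at 7.91, 4.78 and 7.97 in the control and at 7.86, 7.25 and 8.01 in the mutant. Without control replicate 2 the list had a median log2 fold change of -0.19 with 2 of 19 values above 0, where the replication members had 0.22 with 36 of 42 above 0. The difference between the lists was not tested. CHR letters were found for 12 of 17 mitosis genes with a window (70.6%) and E2F letters for 1 of 17, against 16.7% and 44.4% of the members. E2F letters were not particular to the members. They were found for 5 of 12 E2F and pocket protein genes (41.7%), 3 of 11 G1 and S phase cyclins, kinases and inhibitors (27.3%) and 6 of 24 other replication genes (25%).

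**Figure D5:**
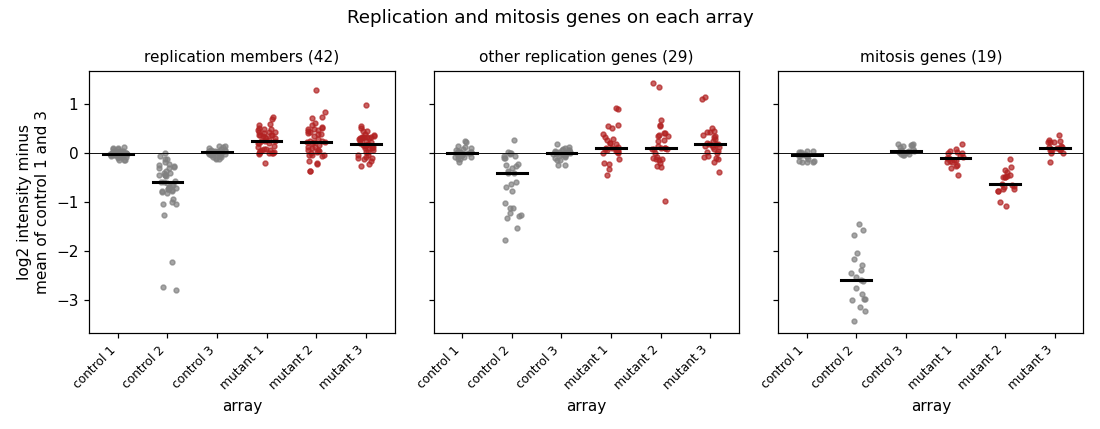
Log2 intensity on each array (x axis) minus the mean of control replicates 1 and 3 (y axis) for the 42 members, 29 other replication genes and 19 mitosis genes, with a point per gene and a bar at the median. Control replicate 2 is low in each panel, with a median gap of -0.60 for the members and -2.59 for mitosis genes, and in this plot only the replication panels have mutant medians above 0 on all 3 mutant arrays.

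Marker lists that moved with the groups are given beside these results. Over all genes 5.61% rose and 6.36% fell on 6 arrays. Of 10 measured adipocyte markers, 4 rose and 0 fell, with means of 4.05 to 5.27 on the control arrays and 5.82 to 6.32 on the mutant arrays. Of 12 macrophage markers, 6 rose and 0 fell, with means of 6.16 to 6.27 and 6.47 to 6.57. Of 11 estrogen-responsive uterine genes, 1 rose and 4 fell, with means of 7.998, 7.57 and 8.17 in control replicates 1 to 3 and 7.12 to 7.62 in the mutant. The gene of this list that rose was Cdkn1a, which is also counted among the G1 and S phase inhibitors above. Epithelial, stromal, myometrial, endothelial and lymphocyte markers had median log2 fold changes of -0.31 to 0.00. In control replicate 2 the reference genes had a mean of 9.72, beside 9.65 and 9.68 on the other control arrays. The part of any of these in the replication results was not tested.

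Over all 94 probe sets of the members, 10 rose and 0 fell on 6 arrays, when 4.27% of 34945 probe sets rose and 4.14% fell, and 12 rose and 0 fell without control replicate 2, against 3.31% and 2.55%. Of 25 further probe sets with a mean intensity of 16 or more, 24 were lowest in control replicate 2.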

How the data were processed

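The 43 members, the other gene lists and the decision to refit without control replicate 2 were chosen with earlier results of these data known. For each probe set the authors deposited an intensity on every array, linear and already scaled between arrays. The submitters' processing notes name RMA, and neither its version nor filters or detection calls are stated there. Groups and replicate numbers were taken from the labels. Gene symbols came from the platform annotation, in which 34945 of 45037 probe sets had 1 symbol, 932 had several and 9160 had none. Log2 was taken after a floor of 1, which changed 0 values. The comparison used lmFit and eBayes of limma 3.58.1 (R 4.3.3) without covariates, and p-values were adjusted by Benjamini-Hochberg over 18193 genes, with 0.05 as threshold. The fit without control replicate 2 has 2 control arrays and takes the spread over both groups. Errors are SDs for group means and limma's standard errors for differences. Values on every array are given for members called in either fit, Mcm2 to Mcm7, the 5 widest and 5 narrowest gaps of control replicate 2 and the brightest member of each role. From other lists up to 4 genes past the threshold are named, and genes named beyond this rule, such as Mki67, were chosen after their values were seen. The mean of the probe sets, other scalings, filters and tests, and leaving out each array, were tried as alternatives. In data simulated from these arrays for 18193 genes, 40%, 84% and 98% of changes of 0.5, 1 and 2 were recovered, with 6 false among 159 calls. The simulated noise was independent between genes and had the same spread in both groups. It held no array that was low for many genes together, so these rates do not carry over to the members. At most 2.11% of probe sets held identical values on a pair of arrays. Promoter windows were read from RefSeq tables, and the arrays themselves name no genome build. The ChIP-seq, tissue staining and human experiments were not analysed here.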

Additional observations from a re-analysis of the deposited data

How the results depend on the processing

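No called member changed sign under any alternative, and the count of members that fell was 0 under all of them. With a floor of 16, 2 members rose (283 genes rose and 243 fell), and the median of the licensing genes was 0.092. The floor leaves dim genes such as Cdc6, Gins3 and Chaf1b nothing to measure below it. Chaf1b still passed there, with a log2 fold change of 0.37. All its control values were set to the floor, so that the control group had no spread. With the methods' t-test and Benjamini-Hochberg adjustment, 0 members, 105 genes higher and 39 genes lower passed. At a fold above 1.5 and an unadjusted p under 0.05 from limma 744 genes rose and 757 fell, and from the methods' t-test, an alternative added after seeing the data, 6 members and 649 genes rose and 665 genes fell. Over all probe sets without control replicate 2, also added after seeing the data, 12 member probe sets rose, and 76 of the 94 were lowest in that array. Leaving out each array in turn gave 2 to 7 members higher and 0 lower, 480 to 971 genes higher and 372 to 1139 lower, and a member median of 0.22 to 0.58. By role the medians then ran from 0.11 to 0.26 for licensing, 0.47 to 0.70 for MCM, 0.21 to 0.59 for helicase activation, 0.06 to 0.33 for polymerases, 0.17 to 0.49 for clamp, loader and RPA, 0.18 to 0.69 for lagging strand, 0.18 to 1.06 for nucleotide supply and 0.47 to 0.91 for chromatin genes. In each of these role ranges the lower end is the fit without control replicate 2. Rpa1 passed in 15 of 16 settings and Cdc6 in 13 of 15. Whether replicate numbers pair the arrays was not settled. Correlations of deviations from group means were 0.01, 0.21 and 0.16 for same-numbered arrays. For arrays with different numbers they ran from -0.21 to 0.11. Under the replicate block 966 genes rose and 1085 fell, 6 members rose, and Chaf1b was lost (adjusted p = 0.0533 from limma). Other scalings, an intensity trend, array weights and the mean of probe sets kept the count of members within 1.5 times of 7.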
